A study of Mus with 2 samples.

Results

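The 10 genes described here belong to the TGF-beta pathway and were followed through nuclei of mouse interscapular brown adipose tissue (iBAT). They were taken by name as the ligands *Tgfb1*, *Tgfb2* and *Tgfb3*, the latency protein *Ltbp1*, the receptors *Tgfbr1*, *Tgfbr2* and *Tgfbr3*, the effector *Smad3* and the feedback inhibitors *Smad7* and *Pmepa1*. They make up 10 of the 32285 genes in the files, and all 10 had unique molecular identifiers (UMIs, each standing for 1 captured RNA molecule) in both libraries.

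The study set out to remove *Wtap*, a subunit of the complex that writes m6A on RNA, from brown adipocytes, and profiled single nuclei from frozen iBAT with 10x Genomics chemistry. All mice were C57BL/6 and 8 weeks old on normal chow. The *Wtap*flox/flox controls carried the floxed alleles without Cre, and the *Wtap*-BKO mice carried the same floxed alleles with UCP1-iCre, in which Cre is made from the *Ucp1* locus that is active in brown adipocytes. Each genotype gave 1 library, pooled from 4 mice, so that no difference below has a replicate check and no test between genotypes was possible. The files hold 9494 nuclei for *Wtap*flox/flox and 8772 for *Wtap*-BKO. Total UMIs were 10770604 and 13945673, and the median nucleus had 954 and 1306.

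TGF-beta ligands are secreted in a latent form that LTBP proteins anchor to the matrix. Once released, a ligand binds the type II receptor TGFBR2, which recruits the type I receptor TGFBR1, and the active pair phosphorylates SMAD2 and SMAD3, which enter the nucleus with SMAD4. Among the genes then switched on are SMAD7 and PMEPA1, which restrain the signal. In adipose tissue the pathway is known for driving matrix production and for holding back adipocyte differentiation.

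*Wtap* itself was not lower in the adipocyte-like nuclei of the library labelled *Wtap*-BKO. Its level there was 385 UMIs or 50.6 CPM (UMIs per 1000000) in *Wtap*flox/flox against 401 UMIs or 48.2 CPM, a log2 ratio of -0.07 with a 95% interval of -0.28 to 0.14. UMIs of a gene need not come from its deleted part, so this count does not check the deletion. The 2 libraries are therefore named by their labels throughout, and every direction below is that of the library labelled *Wtap*-BKO relative to the other.

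Nuclei were placed in lineages by clusters and their marker genes. The 6 lineages compared had at least 100 nuclei in each library, with 6743 and 4915 adipocyte-like, 1220 and 839 endothelial-like, 402 and 204 pericyte-like, 277 and 495 fibroblast-like, 291 and 1116 macrophage-like and 117 and 749 T cell-like nuclei in the *Wtap*flox/flox and *Wtap*-BKO libraries respectively. The macrophage-like cluster also had the antigen-presentation genes *Ciita* and *Wdfy4* among its leading genes. Endothelial-like nuclei came mostly from cluster 4 in the *Wtap*flox/flox library (860 against 260 nuclei) and from cluster 5 in the other (360 against 579). Mitochondrial UMIs made up 7.60% and 11.7% of all UMIs, and 33.0% and 74.8% of nuclei were above 5%. The libraries shared 20 barcodes. The 14 adipocyte markers summed to 9023 and 13705 CPM in adipocyte-like nuclei and still reached between 3514 and 6087 CPM in the 5 other lineages. RNA of these marker genes was thus counted in every lineage, and how much of it came from adipocytes was not tested. The 10 genes were kept out of those used for clustering.

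Levels are CPM, the UMIs of a gene per 1000000 UMIs of the nuclei considered, with exact 95% Poisson intervals, and ratios between libraries are log2 with exact conditional 95% intervals. Shares carry exact binomial (Clopper-Pearson) intervals. All of these intervals reflect counting error alone and say nothing of differences among mice. A gene was tested, in the sense of being held to a rule of size, where both libraries together held at least 20 UMIs, and was called higher or lower where the ratio reached 1.5-fold and its interval left out 0. That call describes the 2 libraries and not the genotypes.

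*Pmepa1*, which encodes a membrane protein that sequesters SMAD2 and SMAD3 and is itself induced by TGF-beta, had the widest difference of the 10 genes between the libraries in adipocyte-like nuclei. In adipocyte-like nuclei it had 11141 UMIs in the control library and 2990 in the library labelled *Wtap*-BKO. These gave 1466 CPM (95% interval 1439 to 1493) against 360 CPM (347 to 373), and the intervals lay far apart. The log2 ratio was -2.03 (-2.09 to -1.97), and only 75 of the 14071 genes tested in these nuclei had a lower one. The gene lies at chr2:173224458-173276731 in the RefSeq annotation of GRCm38, the build that the files' mm10 label also names.

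The lower level of *Pmepa1* was present in each subset of adipocyte-like nuclei compared. Cluster 0, which had *Pmepa1* among its leading genes, stood at 1599 and 323 CPM (log2 ratio -2.31), and cluster 1, led by mitochondrially encoded genes, stood at 1156 and 246 CPM (-2.23). Cluster 2, led by *Lncbate10* and *Foxp2*, stood at 1547 and 423 CPM (-1.87). The smaller differences were those of cluster 9, led by *Slc7a10* and *Cyp2e1* (1408 and 527 CPM, -1.42), and of cluster 11, led by interferon-inducible GTPase genes (1329 and 559 CPM, -1.25). Since the libraries differed in their mitochondrial share, adipocyte-like nuclei were also split by it. The log2 ratio was -1.66 in nuclei with 0 to 5% mitochondrial UMIs, -1.80 at 5 to 10% and -1.63 at 10 to 25%, so that *Pmepa1* was lower in each of these 3 ranges. Nuclei above 25% were not compared.

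The difference was spread over the population of nuclei rather than limited to a few. After each nucleus was thinned to 1000 UMIs, which left 3289 and 3833 adipocyte-like nuclei and dropped 3454 and 1082 shallower ones, *Pmepa1* was seen in 70.5% (68.9 to 72.0) of nuclei in the *Wtap*flox/flox library and in 24.7% (23.4 to 26.1) in the library labelled *Wtap*-BKO. Without thinning the shares were 69.5% and 33.5%. At least 3 UMIs were found in 20.7% of thinned nuclei against 1.85%, and the mean was 1.48 against 0.351 UMIs per nucleus. For comparison, the share in T cell-like nuclei was 48.3% (35.0 to 61.8) against 7.44% (4.96 to 10.6), at median depths of 989 and 979 UMIs in T cell-like nuclei and 989 and 1477 in adipocyte-like nuclei.

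Outside adipocyte-like nuclei *Pmepa1* had a log2 ratio of -1.84 in endothelial-like, -1.91 in pericyte-like, -1.80 in fibroblast-like, -2.45 in macrophage-like and -2.59 in T cell-like nuclei. It was called lower in all of these under all 10 alternatives, but some of them moved its size. The pericyte-like ratio was -0.98 (-1.22 to -0.75) when each nucleus was assigned by its own markers. The macrophage-like ratio ran from -3.17 under the same assignment to -1.31 among nuclei above 5% mitochondrial UMIs, and the endothelial-like ratio was -2.84 without those nuclei. Its level there was 28.7 to 48.0% of the adipocyte-like level in the control library and 30.9 to 36.2% in the other. The 14 adipocyte markers together stood at 38.9 to 67.5% and 27.6 to 42.7% in the same lineages. In the library labelled *Wtap*-BKO *Pmepa1* was above the summed markers in fibroblast-like nuclei (36.2% against 27.6%). It was slightly above them in pericyte-like (31.2% against 29.7%) and macrophage-like nuclei (30.9% against 30.8%). Over the 5 lineages and both libraries the highest single marker ranged from 47.9 to 126% and the lowest from 23.1 to 46.3%. *Pmepa1* lay between the lowest and the highest marker except in 2 lineages of the control library. There it was below every marker, in endothelial-like (30.2% against a lowest of 32.7%) and pericyte-like nuclei (28.7% against 32.1%). A range over 14 markers is wide, so a place within it says little. The part of free adipocyte RNA in these values was not tested, and no expression by the other lineages is read from them.

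**Figure D1:**
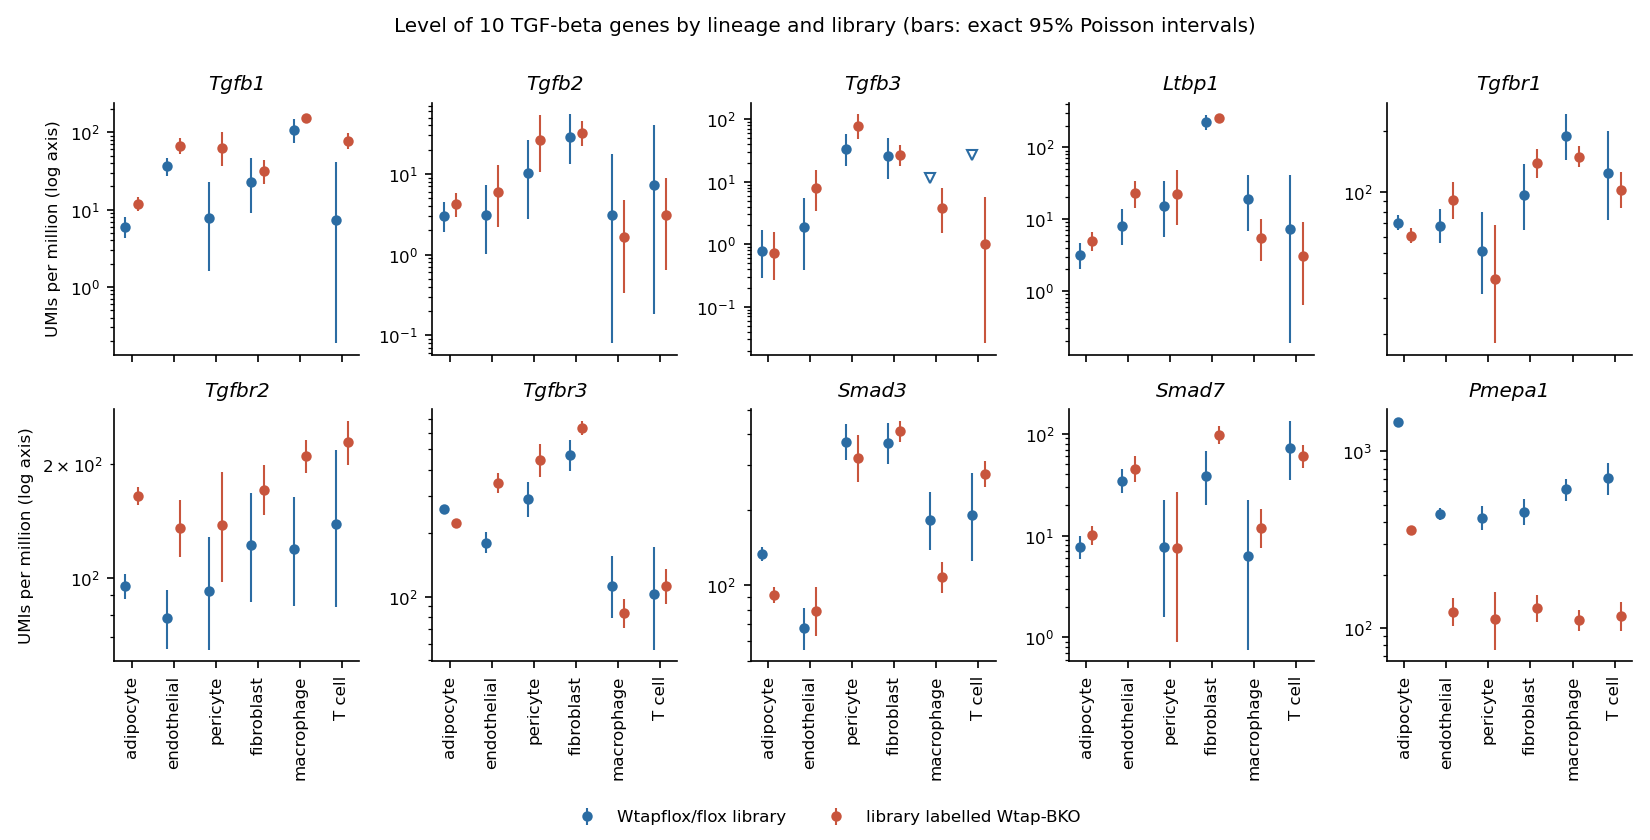
Level of each of the 10 genes (CPM, log axis) in 6 lineages of the *Wtap*flox/flox library (blue) and the library labelled *Wtap*-BKO (red); points are single libraries, bars exact 95% Poisson intervals, and open triangles the upper limit where no UMI was seen. *Pmepa1* stood at 1466 and 360 CPM in adipocyte-like nuclei, whereas, among these lineages, *Tgfb1* was highest in macrophage-like and *Ltbp1* in fibroblast-like nuclei of both libraries.

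The levels of all 10 genes by lineage are shown together in the plot of CPM by lineage and library. Of the 10 genes, only *Pmepa1* had its highest level among these lineages in adipocyte-like nuclei of both libraries.

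*Tgfb1*, the ligand for which the family is named (chr7:25687002-25705077), was highest in macrophage-like nuclei among the 6 lineages compared, in both libraries. It had 34 UMIs there in the control library and 279 in the library labelled *Wtap*-BKO, or 106 CPM (73.7 to 149) against 152 CPM (135 to 171). The log2 ratio of 0.52 (0.00 to 1.08) did not reach the size for a call, and it was 1.16 among nuclei above 5% mitochondrial UMIs. Adipocyte-like nuclei held 45 and 99 UMIs, 5.92 against 11.9 CPM, a ratio of 1.01 (0.49 to 1.55) that was called higher. The call was lost among nuclei above 5% mitochondrial UMIs (0.65, -0.20 to 1.63). By range, the ratio was 1.08 (0.21 to 1.92) at 0 to 5%, 1.99 (0.29 to 4.35) at 5 to 10% and -0.06 (-1.16 to 1.24) at 10 to 25%, from 3 to 46 UMIs per library. The summed level of the 10 macrophage markers in those same adipocyte-like nuclei was 77.1 and 165 CPM and that of the 10 T cell markers 17.6 and 61.6 CPM, with none of these markers at 0. The part of such RNA in the *Tgfb1* ratio was not tested.

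In endothelial-like nuclei *Tgfb1* had 58 and 68 UMIs, or 36.3 and 67.3 CPM, and its ratio of 0.89 (0.36 to 1.42) was called higher. Within cluster 4 the ratio was 0.63 (-0.16 to 1.40) and within cluster 5 it was 0.32 (-0.49 to 1.18), so that neither cluster alone met the rule. The call was also lost without nuclei above 5% mitochondrial UMIs (0.26, -0.699 to 1.199), at thinning (1.01, -0.03 to 2.06) and at median-of-ratios scaling (0.54), which sets the median gene near 0, and the median over all 9960 genes tested in endothelial-like nuclei was 0.35. T cell-like nuclei had 1 UMI against 75, a ratio of 3.39 with an interval of 0.87 to 8.72, and this call was lost in 2 of 9 alternatives, among them thinning (2.35, -0.23 to 7.70). Pericyte-like nuclei had 3 UMIs against 17, a ratio of 3.05 (1.26 to 5.46). That call was lost in 5 of 10 alternatives, in which 8 to 13 UMIs were left and the ratio was 2.26 to 3.63, and it held at 1.38 (0.06 to 2.96) when each nucleus was assigned by its own markers. Both low values come from the *Wtap*flox/flox library, which held 117 T cell-like and 402 pericyte-like nuclei. Macrophage markers summed to 58.6 and 199 CPM in T cell-like and to 71.9 and 273 CPM in pericyte-like nuclei, with 5 and 2 of the 10 at 0 in the control library. They summed to 144 and 439 CPM in endothelial-like nuclei, and their part in these ratios was not tested.

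Summed over all nuclei, *Tgfb1* had 154 UMIs against 588, or 14.3 against 42.2 CPM, a log2 ratio of 1.56 (1.30 to 1.83). Macrophage-like nuclei held 22.1% (15.8 to 29.5) of these UMIs in the control library and 47.4% (43.3 to 51.6) in the other, while T cell-like nuclei went from 0.649% to 12.8%. With the levels of the library labelled *Wtap*-BKO weighted by the lineage make-up of the *Wtap*flox/flox library, the ratio was 0.97. A change in how many nuclei of a lineage were captured and a change in RNA per nucleus cannot be told apart in the whole-library value.

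*Tgfb2* and *Tgfb3*, the remaining ligands, were rare. *Tgfb2* (chr1:186622787-186709697) was highest among these lineages in fibroblast-like nuclei, at 29.0 CPM from 9 UMIs and 32.1 CPM from 33 UMIs, with a ratio of 0.15 (-0.95 to 1.40). Pericyte-like nuclei came next, and the gap of 1.497 (-0.34 to 3.65) and 0.29 (-0.91 to 1.72) on the log2 scale was within counting error in both libraries. In all nuclei it had 44 and 88 UMIs and a ratio of 0.63 (0.09 to 1.18), called higher, and that call was lost in 4 of 10 alternatives, whereas the ratio rose to 1.37 without nuclei above 5% mitochondrial UMIs. *Tgfb3* (chr12:86056743-86079041) was concentrated in mural and stromal nuclei. Pericyte-like nuclei stood at 33.4 CPM from 13 UMIs and 78.5 CPM from 21 UMIs, and fibroblast-like nuclei at 25.7 and 27.2 CPM, whereas the 6 and 6 UMIs in adipocyte-like nuclei gave 0.789 and 0.722 CPM. The pericyte-like ratio of 1.23 (0.17 to 2.35) was called higher but was 0.01 when each nucleus was assigned by its own markers.

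*Ltbp1*, which tethers latent TGF-beta to matrix fibrils (chr17:75005480-75392512), was concentrated in fibroblast-like nuclei. Fibroblast-like nuclei had 222 CPM (173 to 281) from 69 UMIs and 256 CPM (226 to 289) from 263 UMIs, which was 70.3-fold and 51.8-fold the level in adipocyte-like nuclei of the same library. After thinning, *Ltbp1* was seen in 16.7% (10.5 to 24.6) and 21.1% (17.1 to 25.4) of fibroblast-like nuclei, against 1.72% (0.0436 to 9.24) and 0.275% (0.00697 to 1.53) of T cell-like nuclei. Median depths were 921 and 1598 UMIs in fibroblast-like and 989 and 979 in T cell-like nuclei.

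The fibroblast-like level of *Ltbp1* was not called, with a log2 ratio of 0.20 (-0.18 to 0.61). It was called higher among nuclei above 5% mitochondrial UMIs (1.42, 0.14 to 3.07) and when each nucleus was assigned by its own markers (0.79, 0.33 to 1.27). In all nuclei its 120 and 347 UMIs gave a ratio of 1.16 (0.86 to 1.47), called higher. It was 0.69 among nuclei above 5% mitochondrial UMIs, 2.19 without them, both called, and 0.46 at the lineage make-up of the *Wtap*flox/flox library. Fibroblast-like nuclei held 57.5% (48.1 to 66.5) and 75.8% (70.9 to 80.2) of the *Ltbp1* UMIs. They were 2.92% and 5.64% of all nuclei and held 2.88% and 7.38% of the UMIs of all genes. Endothelial-like nuclei had 13 and 23 UMIs and a called ratio of 1.49 (0.44 to 2.59), lost in 4 of 10 alternatives, among them thinning (0.61, -1.72 to 2.83). Fibroblast markers summed to 178 and 670 CPM in those nuclei, and their part was not tested.

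**Figure D2:**
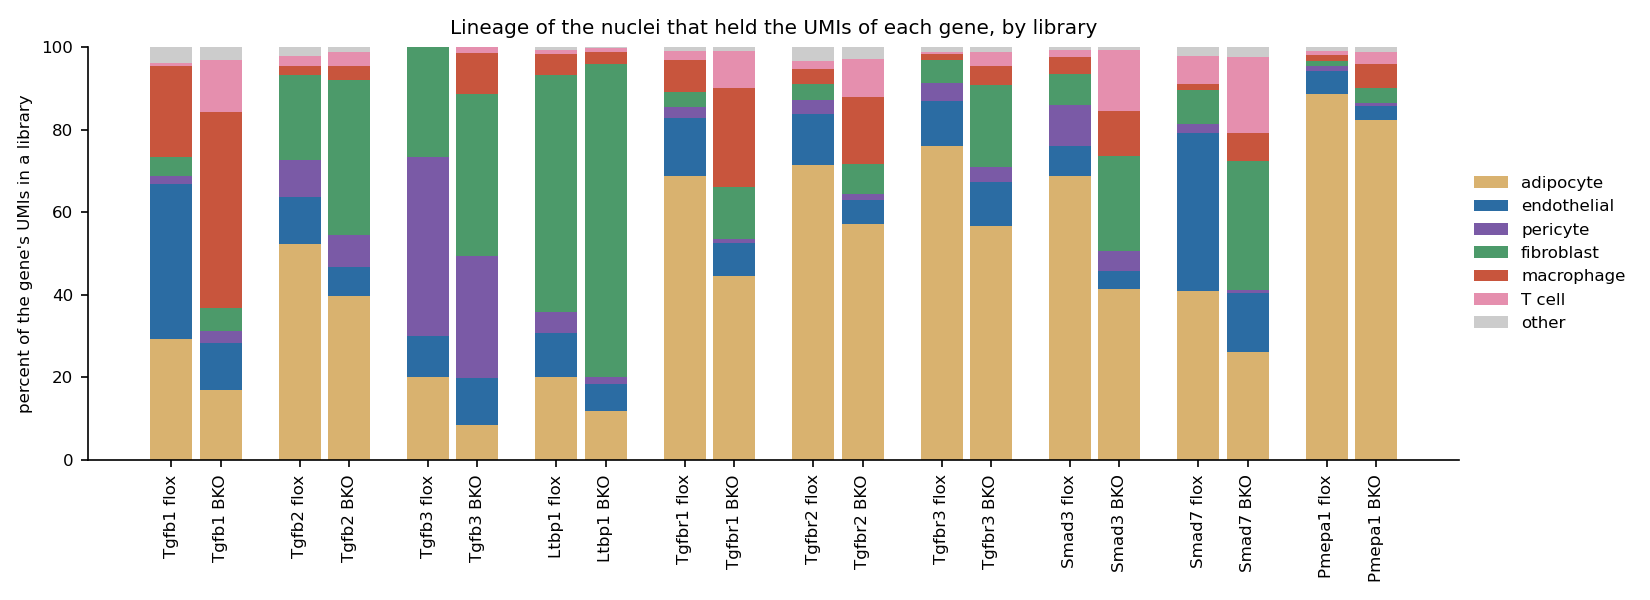
Percent of each gene's UMIs that lay in nuclei of each lineage, with 1 stacked bar per gene and library (flox, *Wtap*flox/flox; BKO, the library labelled *Wtap*-BKO; other, B cell-like, Schwann-like and unnamed nuclei). The macrophage-like part of *Tgfb1* was 22.1% and 47.4%, and the fibroblast-like part of *Ltbp1* was 57.5% and 75.8%.

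The stacked bars of UMI origin show how far each whole-library value rested on 1 lineage. Adipocyte-like nuclei held 88.6% and 82.2% of the *Pmepa1* UMIs, 71.3% and 57.1% of those of *Tgfbr2*, and 68.7% and 41.5% of those of *Smad3*. They made up 71.0% and 56.0% of all nuclei and held 70.6% and 59.6% of all UMIs.

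*Tgfbr2*, the type II receptor that binds the ligand first (chr9:116087695-116175363), was higher in the library labelled *Wtap*-BKO. In adipocyte-like nuclei it had 722 UMIs against 1366, or 94.98 CPM (88.2 to 102) against 164 CPM (156 to 173), with intervals that did not meet. The log2 ratio was 0.79 (0.66 to 0.92), beside a median of 0.07 over all 14071 genes tested in these nuclei. It was called higher under all 10 alternatives, which gave 0.66 to 1.03.

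The higher *Tgfbr2* level was found in most subsets of adipocyte-like nuclei. Clusters 0, 1, 2 and 9 had log2 ratios of 0.98, 0.78, 0.77 and 0.70, all called, and cluster 11 had 0.14 (-0.57 to 0.92). Nuclei with 0 to 5%, 5 to 10% and 10 to 25% mitochondrial UMIs had 0.90, 1.14 and 0.75. After thinning, 9.24% (8.27 to 10.3) and 14.2% (13.2 to 15.4) of adipocyte-like nuclei held a *Tgfbr2* UMI, and the unthinned shares were 9.65% and 22.0%. No lineage here is known to lack the gene, so that no background share is given.

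Other lineages also had more *Tgfbr2* in the library labelled *Wtap*-BKO. The level was 78.2 and 136 CPM in endothelial-like nuclei (ratio 0.79), 119 and 210 CPM in macrophage-like nuclei (0.82) and 139 and 228 CPM in T cell-like nuclei (0.71), all called higher. Pericyte-like (0.58, -0.12 to 1.29) and fibroblast-like nuclei (0.48, -0.03 to 1.03) did not meet the rule. Within endothelial-like clusters the ratio was 0.90 in cluster 4, called, and 0.32 (-0.34 to 1.01) in cluster 5. The endothelial-like call was lost at median-of-ratios scaling (0.45) and without nuclei above 5% mitochondrial UMIs (0.49), the macrophage-like call in 2 of 10 alternatives, among them without the highest doublet scores (0.46), and the T cell-like call in 4 of 10 alternatives. Among nuclei above 5% mitochondrial UMIs the T cell-like ratio was 2.82 (0.33 to 8.14). Within macrophage-like nuclei the 6 dendritic cell markers summed to 1130 and 1887 CPM, with none at 0, and the 8 B cell markers to 266 and 136 CPM, with 2 and 0 at 0, and their part in the macrophage-like ratio was not tested.

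**Figure D3:**
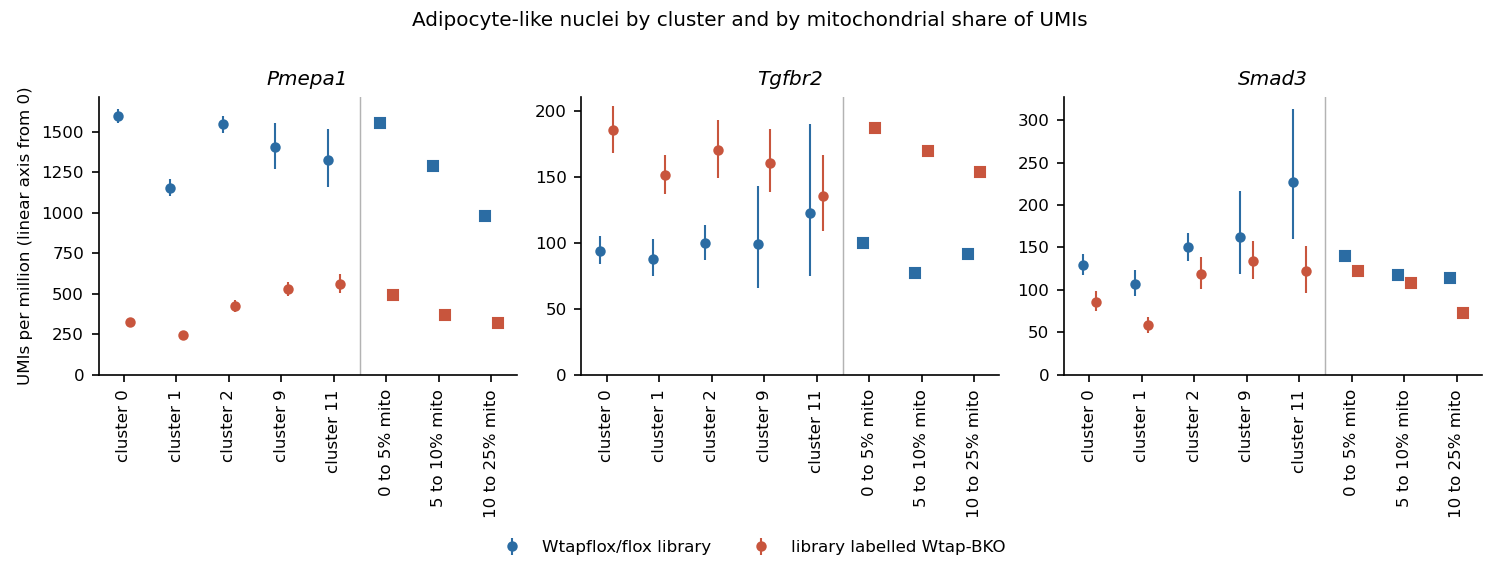
*Pmepa1*, *Tgfbr2* and *Smad3* (CPM, linear axes from 0) in 5 clusters of adipocyte-like nuclei (circles, with exact 95% Poisson intervals) and in 3 ranges of mitochondrial share (squares, no intervals drawn), for the *Wtap*flox/flox library (blue) and the library labelled *Wtap*-BKO (red). *Pmepa1* was lower in each subset drawn, with cluster ratios from -2.31 to -1.25, whereas the *Tgfbr2* intervals of clusters 9 and 11 overlapped.

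The plot of adipocyte-like subsets sets *Pmepa1* and *Tgfbr2* beside *Smad3*, which is described below.

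*Tgfbr1*, the type I receptor kinase (chr4:47353222-47414926), met the rule of size in no lineage. In pericyte-like nuclei its ratio of -0.46 (-1.72 to 0.71) turned to 0.78 (0.10 to 1.51), called higher, when each nucleus was assigned by its own markers. Adipocyte-like nuclei had 536 and 507 UMIs, 70.5 and 61.0 CPM, with a ratio of -0.21 (-0.39 to -0.03) that became 0.07 among nuclei above 5% mitochondrial UMIs. Its levels were highest in macrophage-like nuclei, at 188 CPM (143 to 242) and 150 CPM (132 to 168), 2.66-fold and 2.45-fold the adipocyte-like level. The next lineage in the order was T cell-like in the *Wtap*flox/flox library, with macrophage-like nuclei 0.59 log2 above it (-0.20 to 1.46), and fibroblast-like in the other, with a gap of 0.11 (-0.19 to 0.41). These neighbours did not differ beyond counting error.

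*Tgfbr3*, betaglycan, a co-receptor that presents the ligand to TGFBR2 (chr5:107106567-107289629), was highest in fibroblast-like nuclei. Their levels were 470 CPM (397 to 553) and 635 CPM (587 to 685), with a log2 ratio of 0.43 (0.17 to 0.70) that fell short of 1.5-fold. In adipocyte-like nuclei the 1976 and 1862 UMIs gave 260.0 and 224 CPM, a ratio of -0.21 (-0.31 to -0.12). It was not called, and it turned to 0.15 (0.00 to 0.29) without nuclei above 5% mitochondrial UMIs.

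Vascular nuclei had more *Tgfbr3* in the library labelled *Wtap*-BKO. Endothelial-like nuclei stood at 181 CPM (161 to 203) and 348 CPM (312 to 386), a ratio of 0.94 (0.71 to 1.17), and pericyte-like nuclei at 290.0 and 445 CPM, a ratio of 0.62 (0.234 to 1.002). Both endothelial-like clusters met the rule, with 0.63 (0.31 to 0.94) in cluster 4 and 0.80 (0.40 to 1.22) in cluster 5. The endothelial-like call held in all 10 alternatives, from 0.60 to 1.12, beside a median of 0.35 over all genes tested there. The pericyte-like call was lost in 3 of 10. Fibroblast markers, from the lineage with the highest *Tgfbr3*, summed to 178 and 670 CPM in endothelial-like and 346 and 598 CPM in pericyte-like nuclei, and their part was not tested.

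*Smad3*, the receptor-activated effector (chr9:63646766-63757994), was highest in stromal and mural nuclei. Pericyte-like nuclei had 372 CPM (314 to 438) and 322 CPM (257 to 397), and fibroblast-like nuclei had 367 CPM (303 to 441) and 411 CPM (373 to 452). These 2 neighbours in the order could not be separated in the *Wtap*flox/flox library, and neither differed between the libraries by the rule, with ratios of -0.21 and 0.16.

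In adipocyte-like nuclei *Smad3* had 1013 UMIs against 759, or 133 CPM (125 to 142) against 91.3 CPM (84.9 to 98.04). The intervals did not meet, but the log2 ratio of -0.55 (-0.68 to -0.41) was smaller than 1.5-fold and not called. It was called lower in clusters 0, 1 and 11 (-0.59, -0.88 and -0.90) and not in clusters 2 and 9 (-0.34 and -0.28). Over all adipocyte-like nuclei it reached a call with median-of-ratios scaling (-0.62), a minimum of 1000 UMIs per nucleus (-0.59) and thinning (-0.73). Without nuclei above 5% mitochondrial UMIs it was -0.20 (-0.42 to 0.02). The ratio was -0.11 (-0.43 to 0.22) at 5 to 10% mitochondrial UMIs and -0.64 (-1.04 to -0.23) at 10 to 25%. Macrophage-like nuclei had 181 and 108 CPM, a ratio of -0.75 (-1.18 to -0.30) that was called lower, and that was lost without the highest doublet scores (-0.53) and among nuclei above 5% mitochondrial UMIs (-0.34). The part of the dendritic cell and B cell markers, given above for the same nuclei, was not tested. T cell-like nuclei had 190.5 and 277 CPM, with a ratio of 0.54 (-0.04 to 1.18).

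*Smad7*, the inhibitory SMAD that blocks TGFBR1 and is induced by the signal it restrains, was low in adipocyte-like nuclei. It had 59 and 84 UMIs there, 7.76 and 10.1 CPM, and a ratio of 0.38 (-0.12 to 0.89) that was not called. Endothelial-like nuclei had 34.4 and 45.6 CPM (0.40) and T cell-like nuclei 73.3 and 60.6 CPM (-0.27), also not called. After thinning these 2 ratios were 1.21 and 1.05. Within endothelial-like clusters 4 and 5 the unthinned ratios were -0.14 and -0.10. Fibroblast-like nuclei stood apart with 12 UMIs against 100, or 38.6 CPM (19.95 to 67.5) against 97.2 CPM (79.1 to 118), a ratio of 1.33 (0.46 to 2.33) that was called higher. It was 0.59 and not called among nuclei above 5% mitochondrial UMIs, and 2.68 (0.73 to 5.77) after thinning. Markers of skeletal muscle, which borders this depot, summed to 25.7 and 391 CPM in fibroblast-like nuclei, with 5 and 1 of 8 at 0, and their part was not tested.

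**Figure D4:**
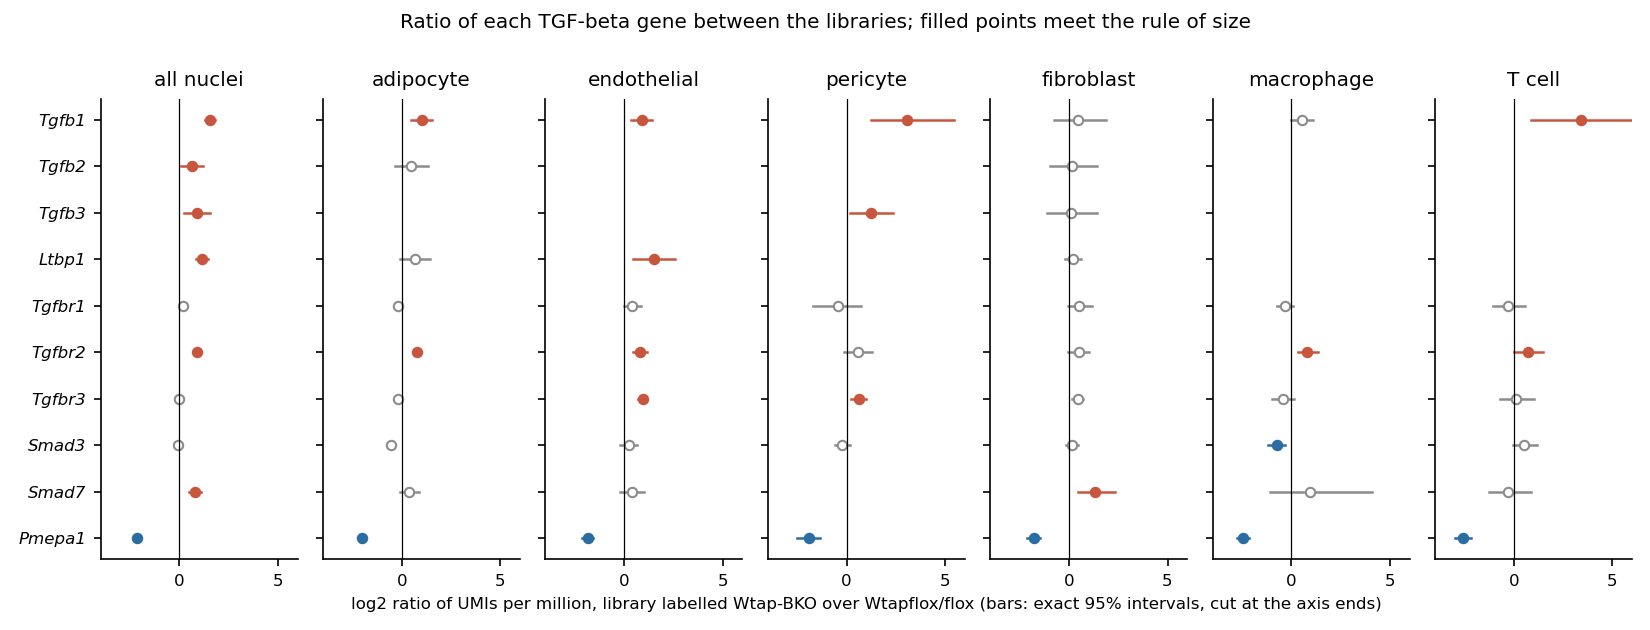
Log2 ratio of CPM, with the *Wtap*flox/flox library as denominator, for each gene with at least 20 UMIs in a lineage; bars are exact 95% intervals cut at the axis ends, filled red points were called higher, filled blue points lower and open points not called. *Pmepa1* was called lower in every panel, with log2 ratios from -2.59 to -1.80.

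Counted together, 2 of the 9 genes tested in adipocyte-like nuclei were called higher (*Tgfb1* and *Tgfbr2*) and 1 lower (*Pmepa1*), where 21.9% of all 14071 genes tested were called higher and 9.99% lower (25.8% and 6.91% without mitochondrial UMIs in the denominator). Their median log2 ratio was 0.38. The plot of ratios by lineage shows this split in each panel, with *Pmepa1* on the far left. In endothelial-like nuclei 4 of 8 were called higher and 1 lower (background 24.8% and 3.16%), and in pericyte-like nuclei 3 of 7 and 1 (7.51% and 6.2%). Fibroblast-like nuclei had 1 of 10 higher and 1 lower (9.93% and 6.26%), macrophage-like nuclei 1 of 7 and 2 (10.7% and 8.62%), and T cell-like nuclei 2 of 7 and 1 (8.16% and 8.49%).

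In all nuclei together 6 of 10 were called higher and 1 lower, against 28.1% and 7.0% of 16290 genes (21.3% and 13.3% with median-of-ratios scaling). The 6 were the 3 ligands, *Ltbp1*, *Tgfbr2* and *Smad7*. The *Tgfb3* call was lost in 3 of 10 alternatives and the *Smad7* call in 2, with 0.20 (-0.23 to 0.63) among nuclei above 5% mitochondrial UMIs and 1.56 (1.15 to 1.98) without them. The *Pmepa1* ratio in all nuclei was -2.16, and -1.55 among nuclei above 5%. At the lineage make-up of the *Wtap*flox/flox library their ratios were 0.97 for *Tgfb1*, 0.53 for *Tgfb2*, 0.96 for *Tgfb3*, 0.46 for *Ltbp1*, 0.76 for *Tgfbr2* and 0.46 for *Smad7*. That for *Pmepa1* was -2.02.

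Other genes of the pathway were taken from lists of latency genes, receptors, inhibitors, target genes and the BMP and activin branch. In adipocyte-like nuclei 3 of 7 tested latency and activation genes were called higher and none lower, beside 21.9% and 9.99% of all genes tested there. *Ltbp3*, another latent TGF-beta binding protein, had 2646 UMIs against 5637, or 348 against 678 CPM, and a ratio of 0.96 (0.90 to 1.03). *Nrros*, which presents TGF-beta1 on myeloid cells, stood at 7.89 and 19.1 CPM (1.28), and *Thbs1*, an activator of latent TGF-beta, at 1.18 and 4.93 CPM (2.06). *Nrros* was at 591 and 760 CPM in macrophage-like nuclei and *Thbs1* at 57.9 and 283 CPM in fibroblast-like nuclei, and the part of RNA from those lineages in the adipocyte-like values was not tested. Macrophage markers summed to 77.1 and 165 CPM and fibroblast markers to 78.0 and 172 CPM in adipocyte-like nuclei, with none at 0.

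**Figure D5:**
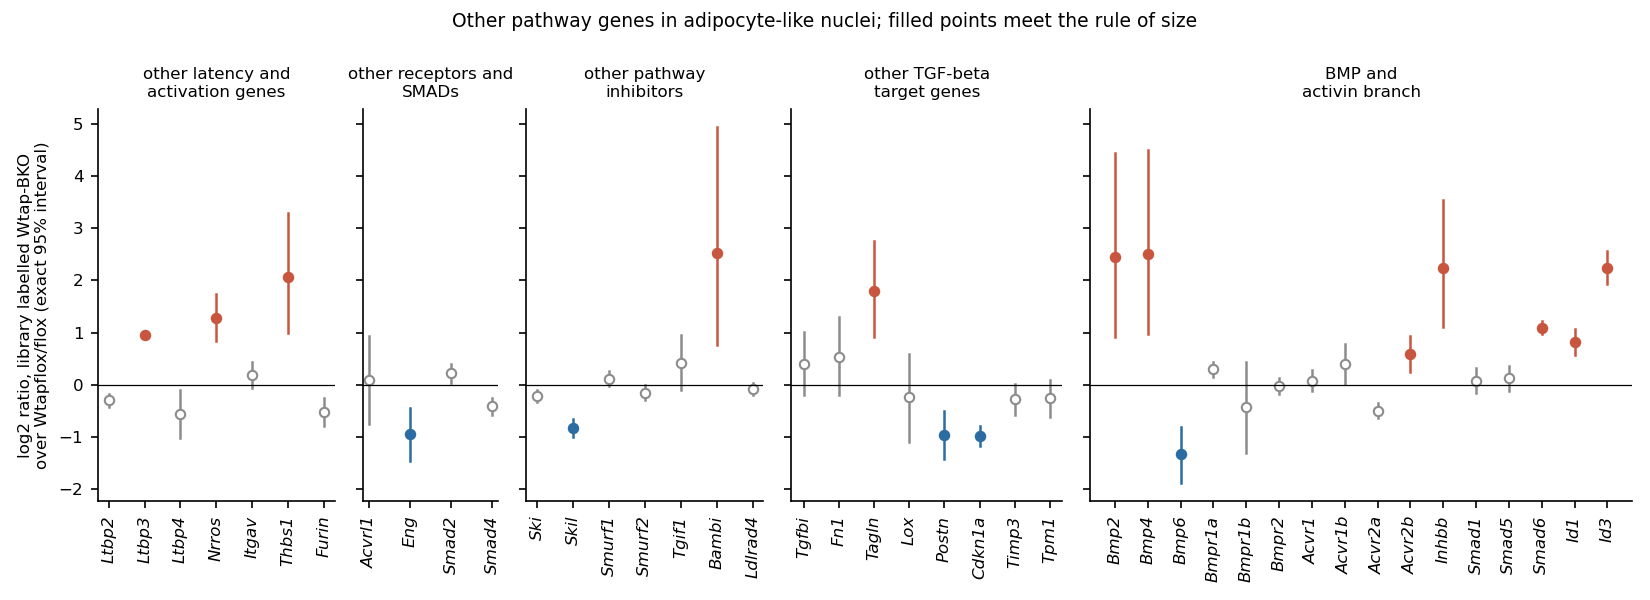
Log2 ratio of CPM in adipocyte-like nuclei, with the *Wtap*flox/flox library as denominator, of the other pathway genes with at least 20 UMIs, grouped by list; bars are exact 95% intervals, filled red points were called higher, filled blue points lower and open points not called. *Ltbp3* (0.96), *Smad6* (1.10) and *Id3* (2.24) were higher, and *Skil* (-0.82) and *Cdkn1a* (-0.98) lower.

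Among the other receptors and SMADs 1 of 4 was called lower and none higher, beside the same 9.99% and 21.9% of all genes. It was the co-receptor *Eng* with 93 and 53 UMIs (-0.94), while *Smad2* (0.22) and *Smad4* (-0.41) were not. *Eng* stood at 229 and 377 CPM in endothelial-like nuclei, and endothelial markers summed to 152 and 96.1 CPM in adipocyte-like nuclei, with none at 0. Their part in the *Eng* ratio was not tested. Of 7 other inhibitors 1 was called lower and 1 higher (9.99% and 21.9% of all genes). *Skil*, a SMAD corepressor that is itself induced by TGF-beta, was lower with 705 and 437 UMIs, 92.7 and 52.6 CPM and a ratio of -0.82 (-0.99 to -0.64). *Bambi*, a decoy receptor, was higher on 3 and 19 UMIs (2.53, 0.77 to 4.93). *Ski*, *Smurf1*, *Smurf2*, *Tgif1* and *Ldlrad4* were not called, with ratios from -0.21 to 0.42.

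Of 8 other target genes tested, 1 was called higher and 2 lower, beside 21.9% and 9.99% of all genes. *Cdkn1a*, a cell cycle inhibitor, had 666 and 370 UMIs (-0.98) and the matrix gene *Postn* 114 and 64 UMIs (-0.96), whereas the actin-binding gene *Tagln* had 14 and 53 UMIs (1.79). In pericyte-like nuclei *Postn* was at 1293 and 1503 CPM and *Tagln* at 18.0 and 120 CPM. The 8 pericyte markers summed to 176 and 271 CPM in adipocyte-like nuclei, none at 0, and the part of such RNA was not tested.

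The BMP and activin branch had 7 of 16 genes called higher and 1 lower in adipocyte-like nuclei, beside 21.9% and 9.99% of all genes. *Id3* and *Id1*, targets of BMP-activated SMADs, stood at 12.9 and 60.8 CPM (2.24, 1.92 to 2.56) and at 26.7 and 46.9 CPM (0.81). *Smad6*, the inhibitory SMAD of that branch, stood at 97.5 and 208 CPM (1.10, 0.97 to 1.22). *Inhbb* (8 and 41 UMIs), *Bmp4* (4 and 25), *Bmp2* (4 and 24) and *Acvr2b* (117 and 193) were also higher, and *Bmp6* was lower with 99 and 43 UMIs (-1.33). *Bmp6* stood at 267 and 423 CPM in endothelial-like nuclei, and the endothelial markers that summed to 152 and 96.1 CPM in adipocyte-like nuclei moved the same way. Their part was not tested. The receptors *Bmpr1a*, *Bmpr2* and *Acvr1* were not called (0.30, -0.02 and 0.08).

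In fibroblast-like nuclei *Thbs1* had 18 UMIs against 291 (2.29, 1.60 to 3.06) and *Smad6* 12 against 95 (1.26), both called higher, and *Bmp6* 13 against 19 (-1.18, -2.27 to -0.04), called lower. The list genes called with the widest ratios in endothelial-like nuclei were *Tgif1* (6 and 20 UMIs, 2.40, 1.03 to 4.00), *Acvr1b* (15 and 24, 1.34, 0.35 to 2.38) and *Tgfbi* (12 and 19, 1.33, 0.21 to 2.50). In pericyte-like nuclei they were *Tagln* (7 and 32, 2.74, 1.53 to 4.16), *Id3* (7 and 23, 2.26, 0.99 to 3.72) and *Skil* (22 and 5, -1.59, -3.35 to -0.16). All of these rest on few UMIs. Macrophage markers summed to 144 and 439 CPM in endothelial-like nuclei, and their part was not tested. Macrophage-like nuclei had *Tgif1* (1.94), *Furin* (1.45) and *Bmpr1a* (-1.13), and T cell-like nuclei *Itgav* (2.37), *Smad5* (-1.48) and *Acvr2a* (-1.21).

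Of the 10 genes, 7 overlap another gene model in that annotation, and UMIs of such pairs may be shared or dropped where the models lie on 1 strand. *Tgfb1*, *Tgfb3* and *Pmepa1* overlap none.

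The genes whose levels ran most nearly parallel to a member were taken over 16 points, the 8 named lineages of both libraries, by Pearson's r of log2(CPM + 1) among 10324 genes. For *Pmepa1* they were *Gnas* (0.941) and *Prkar2b* (0.920), for *Ltbp1* *Loxl1* (0.963) and *Zfp9* (0.952), and for *Tgfbr3* *Cped1* (0.982) and *Tns2* (0.976). For *Tgfbr2* they were *Btg1* (0.875) and *Sp140* (0.863), for *Smad3* *Ssbp2* (0.909) and *Plekhh2* (0.793), and for *Tgfb1* *Pml* (0.914) and *Irf7* (0.906). *Smad7* had *Txndc5* (0.935) and *Dnajb1* (0.933). The points share libraries, free RNA and depth, and among the 12 points of lineages with at least 100 nuclei per library other genes led, such as *A530065N20Rik* (0.988) for *Pmepa1* and *Lama2* (0.967) for *Ltbp1*.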

How the data were processed

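Nuclei were isolated from frozen iBAT of 4 pooled mice per genotype and profiled with 10x Genomics chemistry (version 3.1). Per the submitters' processing notes, the authors used Trimmomatic, FastQC, Cell Ranger 5.0.0 with mm10, and Seurat. The deposited files hold raw UMI counts per gene and nucleus, with a minimum of 500 UMIs per nucleus, and give no cell types. Whether introns were counted is not given in the sources used here.

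Both libraries were clustered together with Seurat 5.3.0 in R 4.3.3 (2000 variable features without 61 genes of the lists described, 20 principal components, resolution 0.5), giving 14 clusters. A cluster was named where at least 3 markers of a class each had at least 10 UMIs and a 2-fold higher level than in the other clusters. Clusters left without such a name were then compared with the named clusters, within the library that gave them the most nuclei, and called adipocyte-like where at least 50% of the adipocyte markers were 1.5-fold higher. One cluster, led by mitochondrially encoded genes, stayed unnamed. B cell-like and Schwann-like nuclei were too few to compare. Scrublet in scanpy 1.11.5 called 0 doublets in either library. Whether its threshold suited these data was not tested, and no nuclei were removed as doublets. An alternative removed the 721 and 616 nuclei with the highest scores, numbers set by an assumed doublet rate. The 38 symbols shared by more than 1 gene were kept apart by identifier.

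Counts were summed per library and lineage and divided by the summed UMIs. Intervals came from scipy 1.17.1 and numpy 2.4.6 in Python 3.11.15, and the calculation was tested on simulated data. With 1 library per genotype no test was run. Where a library held 0 UMIs and the other more than 3, the ratio was set against a floor of 3 UMIs.

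The 10 genes and all lists were chosen with earlier results of these data known. Named besides the 10 were *Wtap*, list genes called in adipocyte-like nuclei, the 3 called list genes with the widest ratio in each other lineage, and the 2 genes most alike each member with at least 200 UMIs. Other list genes are given as uncalled examples, chosen after their values were seen. RefSeq coordinates are those of GRCm38. No sequences are printed. Some genes that these rules name are not reported here, and 1 of them was left out of the list counts.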

Additional observations from a re-analysis of the deposited data

How the results depend on the processing

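Each library is 1 pool of 4 mice, so intervals cover counting error only. Of 58 ratios per gene and lineage, 27 were called, beside 25.3% of all 72862 such ratios over all genes. The 27 kept their call in 226 of 269 recomputations and reversed in none, and over all genes 78.8% of recomputed calls were kept. The calls of *Pmepa1* in the 6 lineages and of *Tgfbr2* in adipocyte-like nuclei were kept in all 10, although the size of the former moved as given above. Among nuclei above 5% mitochondrial UMIs, a setting chosen after seeing the data, 4 of the 10 genes were called in all nuclei (3 higher and 1 lower) instead of 7, beside 35.8% of all genes tested there instead of 35.1%, and the cause was not tested. That count was 5 with median-of-ratios scaling, a minimum of 1000 UMIs per nucleus or thinning to 1000 UMIs, beside 34.6%, 35.6% and 34.4% of all genes. In adipocyte-like nuclei it ranged from 2 (above 5% mitochondrial UMIs, 25.5% of all genes) to 4 (without those nuclei, 27.8%, and with the 3 other settings just named, 30.1 to 31.9%), and the median ratio of the genes tested there, 9 as reported, from 0.02 to 0.56. The median over all genes there was 0.07, 0.19 without mitochondrial UMIs in the denominator and 0.00 with median-of-ratios scaling. The *Tgfb1* and *Tgfb3* calls in pericyte-like nuclei were each lost in 5 of 10 recomputations and rest on 20 and 34 UMIs. No paired analysis was possible because each genotype has 1 library.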

Other observations

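B cell-like nuclei, 12 in the *Wtap*flox/flox library and 63 in the library labelled *Wtap*-BKO, held 3 and 26 UMIs of *Tgfbr2*, 0 and 13 of *Tgfbr3* and 1 and 11 of *Tgfb1*. Schwann-like nuclei, 22 and 16, held 6 and 3 UMIs of *Tgfbr2* and 19 and 5 of *Pmepa1*. The unnamed cluster of 410 and 375 nuclei, led by mitochondrially encoded genes, had *Pmepa1* at 306 and 74.2 CPM, a log2 ratio of -2.05 (-2.66 to -1.47).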
